A study of Mus musculus with 4 samples.

Results

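Open chromatin was described at the 7 insulin-like growth factor binding protein genes (Igfbp1 to Igfbp7) of the mouse, out of 21883 protein-coding genes, in 4 ATAC-seq libraries of dermal fibroblasts. ATAC-seq marks accessible DNA by the insertion of a transposase, and the authors deposited 1 list of called peaks per library. A peak was taken when its midpoint lay inside the mm10 span of a member gene or within 50000 bp of it. This gave 183 of 433013 control peaks, 217 of 585165 knockout peaks, 136 of 340240 vehicle peaks and 144 of 347438 rotenone peaks. All libraries came from C57BL/6 cells. The control library was Sod2+/+, and the knockout library was Sod2-/- from a conditional knockout of Sod2, the mitochondrial manganese superoxide dismutase. The vehicle and rotenone libraries were both Sod2+/+, the second treated with rotenone, an inhibitor of mitochondrial complex I, at a labelled dose of 250 µM. All 4 labels carry 100 days without saying what the days count. What drives the deletion, how many mice stand behind a library and how long cells were treated is not stated in these sources. With 1 library per group there is no replicate check and no test, and the values below compare libraries, not conditions.

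IGF binding proteins are secreted proteins that hold IGF1 and IGF2, lengthen their life in the circulation and either keep them from the IGF1 receptor or deliver them to it. Proteases such as the pappalysins cut some of them and release the bound growth factor. In skin, dermal fibroblasts secrete several members into the matrix, and Igfbp3, Igfbp5 and Igfbp7 are among the factors often measured in the secretion of senescent fibroblasts.

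The promoters of 5 members are shown first, because the start sites of the family differed in whether a peak covered them. The sequences are the 250 bases before a RefSeq start site of GRCm38.p6, 5′ to 3′ on the gene's own strand, and capitals mark a match to a searched motif on either strand. Igfbp7 had a strong peak over its start in every library, and Igfbp4 had a weak peak over its start. At Igfbp3 the best ranked peak near the start was weak and lay beside it, and Igfbp1 had none within 1000 bp. The second start of Igfbp2 holds the only AP-1 match among the 8 member start sites.
Igfbp7, chr5:77408046-77408295, minus strand: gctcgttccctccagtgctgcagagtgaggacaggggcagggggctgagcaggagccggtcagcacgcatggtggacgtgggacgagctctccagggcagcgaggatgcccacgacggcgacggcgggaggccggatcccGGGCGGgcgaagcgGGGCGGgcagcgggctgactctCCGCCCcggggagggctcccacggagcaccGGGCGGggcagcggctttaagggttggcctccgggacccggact
Igfbp4, chr11:99040994-99041243, plus strand: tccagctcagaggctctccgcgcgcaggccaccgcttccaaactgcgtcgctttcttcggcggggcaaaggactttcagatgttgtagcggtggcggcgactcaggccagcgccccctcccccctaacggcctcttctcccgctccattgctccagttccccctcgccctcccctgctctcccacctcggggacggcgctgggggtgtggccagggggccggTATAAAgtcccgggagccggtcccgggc
Igfbp3, chr11:7213924-7214173, minus strand: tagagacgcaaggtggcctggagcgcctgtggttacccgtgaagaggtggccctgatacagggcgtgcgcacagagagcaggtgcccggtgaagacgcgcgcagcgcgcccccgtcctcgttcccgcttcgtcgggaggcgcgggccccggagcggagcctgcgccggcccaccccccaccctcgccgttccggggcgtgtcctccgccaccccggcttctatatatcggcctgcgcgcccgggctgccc
Igfbp1, chr11:7197537-7197786, plus strand: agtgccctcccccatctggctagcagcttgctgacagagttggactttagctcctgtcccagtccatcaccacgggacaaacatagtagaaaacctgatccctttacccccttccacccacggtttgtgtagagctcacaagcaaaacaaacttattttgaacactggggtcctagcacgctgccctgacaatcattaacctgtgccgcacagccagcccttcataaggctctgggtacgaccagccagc
Igfbp2 second start, chr1:72825137-72825386, plus strand: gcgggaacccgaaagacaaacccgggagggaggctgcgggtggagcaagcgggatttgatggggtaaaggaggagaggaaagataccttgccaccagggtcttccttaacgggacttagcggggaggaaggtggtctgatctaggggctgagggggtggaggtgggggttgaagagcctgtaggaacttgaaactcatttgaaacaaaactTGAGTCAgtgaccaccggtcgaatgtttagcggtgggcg

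The 5 motifs searched were AP-1 (TGANTCA), the cyclic AMP response element (TGACGTCA), the GC box (GGGCGG), the TATA box (TATAAA) and the forkhead motif (GTAAACA), on both strands. Of 21262 promoters of the same length, 6.13% held the AP-1 letters, 1.92% the response element, 42.6% the GC box, 11.6% the TATA box and 2.62% the forkhead letters. The Igfbp7 promoter held 4 GC boxes, whose first bases lie 110, 96, 74 and 44 bases before the start, the third of them on the opposite strand. The first start of Igfbp2 held 3 GC boxes, at 113, 98 and 37 bases. The TATA letters of Igfbp4 began 28 bases before its start, on the gene's own strand. Those of Igfbp6 lay farther out, at 148 bases, and on the opposite strand. The AP-1 letters at the second Igfbp2 start began 39 bases before it. No searched motif was found in the windows of Igfbp1, Igfbp3 and Igfbp5. Only the letters given were matched, so other forms of these elements, such as other TATA-like letters, were not searched. Base composition also varied within the family. GC content was 74.0% with 26 CpG in Igfbp7, 73.2% with 32 CpG in Igfbp3 and 69.2% with 22 CpG in Igfbp4. At the other end it was 53.2% with 5 CpG in Igfbp1 and 49.6% with 7 CpG in Igfbp6, beside a median of 55.6% and 10 CpG over all promoters. Igfbp3 and Igfbp7 were thus alike in composition and differed in the best ranked peak near their start.

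Strong peaks, here the 30000 with the highest −log10 p of each list, were few at most members. The family held 13 strong peaks for control, 14 for the knockout, 17 for vehicle and 13 for rotenone. Igfbp7 held the most in each library, with 7 for control, 6 for the knockout, 8 for vehicle and 6 for rotenone, and its window, the longest of the family, held more strong peaks than 86.0% to 94.4% of all gene windows. The other windows were ordinary or sparse. The median over the 7 members was 1 strong peak for control, 2 for the knockout, 2 for vehicle and 1 for rotenone, beside 2, 2, 2 and 3 over all genes. Merging the strong peaks of the 4 libraries gave 22 regions, with 9 at Igfbp7, 5 at Igfbp4, 3 at Igfbp3, 2 at Igfbp2, 2 at Igfbp6, 1 at Igfbp5 and none at Igfbp1. Of these, 9 lay inside a member, 9 upstream and 4 downstream. The nearest protein-coding gene was a member for 14 regions and another gene (Top2a, Tns4, Spryd3 or Noa1) for 8, so nearness to a member does not assign a region to it. Igfbp1 and Igfbp3 lie tail to tail on chromosome 11 with 3539 bp between them, and Igfbp2 and Igfbp5 tail to tail on chromosome 1 with 5590 bp between them. Peaks in these shared windows were given to the nearer member and counted once. At the edge of the window, the last region inside was 47551 bp from Igfbp7 (chr5:77301555-77301823, strong in 1 library), and the first outside was 52250 bp from it (chr5:77459928-77460663, strong in 4).

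**Figure D1:**
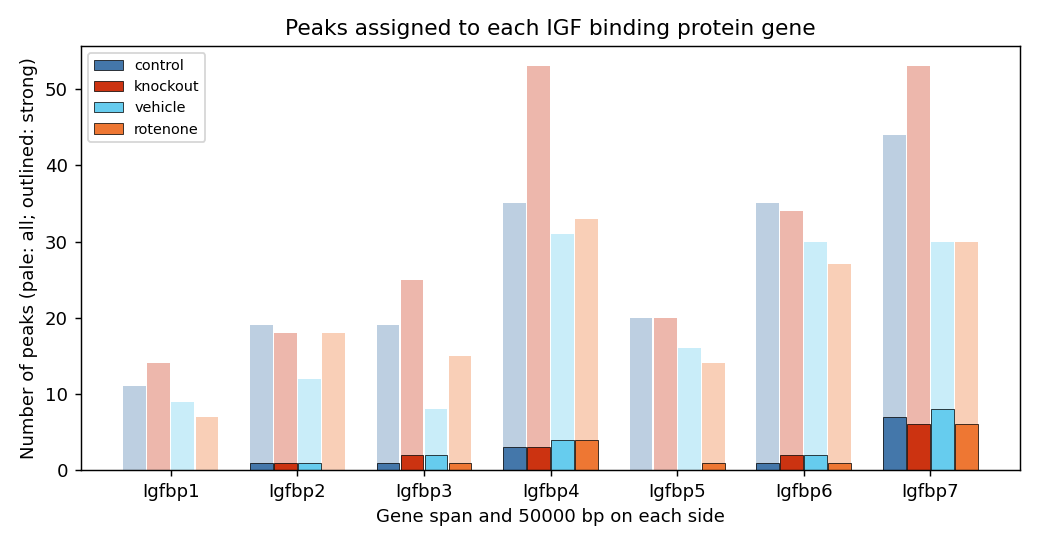
Number of peaks at each gene (vertical axis) by gene (horizontal axis), with pale bars for all peaks and outlined bars for strong peaks in each of the 4 libraries. Igfbp4 and Igfbp7 reach 53 peaks each in the knockout, Igfbp7 holds 6 to 8 strong peaks, and Igfbp1 has none.

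Igfbp3, the main serum carrier of the IGFs, where it forms a complex with the acid-labile subunit, had its leading region upstream of the gene and not at its start. This region, chr11:7237696-7238208, is centred 24029 bp upstream of the start. Its fold enrichment over the local background, as the authors' caller gave it, was 11.68 for control, 9.01 for the knockout, 12.65 for vehicle and 8.69 for rotenone. Its rank, counted from 1 for the strongest peak of a list, was 1942, 3985, 1494 and 5017 in the same order. It was strong in all 4 libraries, and in control and vehicle only the leading Igfbp7 region had comparable ranks among member regions. Inside the gene, chr11:7210470-7210600 was strong in the knockout alone, with folds of 3.85 for control, 4.50 for the knockout, 5.24 for vehicle and 4.27 for rotenone. The vehicle fold was the highest of these although only the knockout peak ranked among the 30000, at 25898 against 33930 in vehicle, since ranks are set within a list. A second narrow peak inside the gene, chr11:7211544-7211624, is 81 bp wide and was strong only in vehicle. Its fold was 5.77 in vehicle, 2.69 in control and 2.08 in the knockout, and rotenone had no peak there.

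Igfbp7, a secreted relative of the family that binds IGFs with low affinity and is found in the matrix of vessels, is the longest member at 58806 bp. Its leading region lies inside the gene, 40251 bp after the start, at chr5:77367524-77368065. The fold there was 11.69 for control, 8.51 for the knockout, 13.11 for vehicle and 11.18 for rotenone, with ranks 2162, 4646, 2023 and 2573. The knockout peak was the weakest of the 4 by both measures. The start region, chr5:77407303-77408306, had folds of 6.31 for control, 5.08 for the knockout, 7.77 for vehicle and 6.11 for rotenone, over widths of 959, 928, 581 and 879 bp. The upstream region chr5:77433451-77433930 had folds of 8.89, 7.54, 9.35 and 8.64 in the same order. These 3 regions were strong in all 4 libraries, and the knockout fold was the lowest at each. By rank the upstream region differed: the knockout peak, at 6492, stood before control (8326) and vehicle (8618) and behind rotenone (6047). The median fold of all strong peaks was also lowest in the knockout, at 5.49.

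Other Igfbp7 regions were less even across libraries. Near the far end of the gene, chr5:77354588-77354797 had a fold of 8.48 for control, 4.03 for the knockout, 6.97 for vehicle and 5.45 for rotenone. Its ranks were 9703, 32498, 13746 and 20183, so the knockout peak fell just outside the strong list while the other 3 were inside it. It was not counted as lost, because the knockout peak there still ranked among its 60000 highest. At 50083 bp after the start, chr5:77357777-77358147 had folds of 5.73, 4.04, 7.64 and 5.91, and here too the knockout peak ranked just past the limit, at 30037. The broad region beyond the gene, chr5:77309325-77310766, ran the other way. Its fold was 5.68 for control, 6.88 for the knockout, 6.21 for vehicle and 7.81 for rotenone, while its width was 1442, 779, 1230 and 885 bp. The higher folds belonged to the narrower peaks there, and its nearest gene is Noa1, a mitochondrial GTPase gene.

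**Figure D2:**
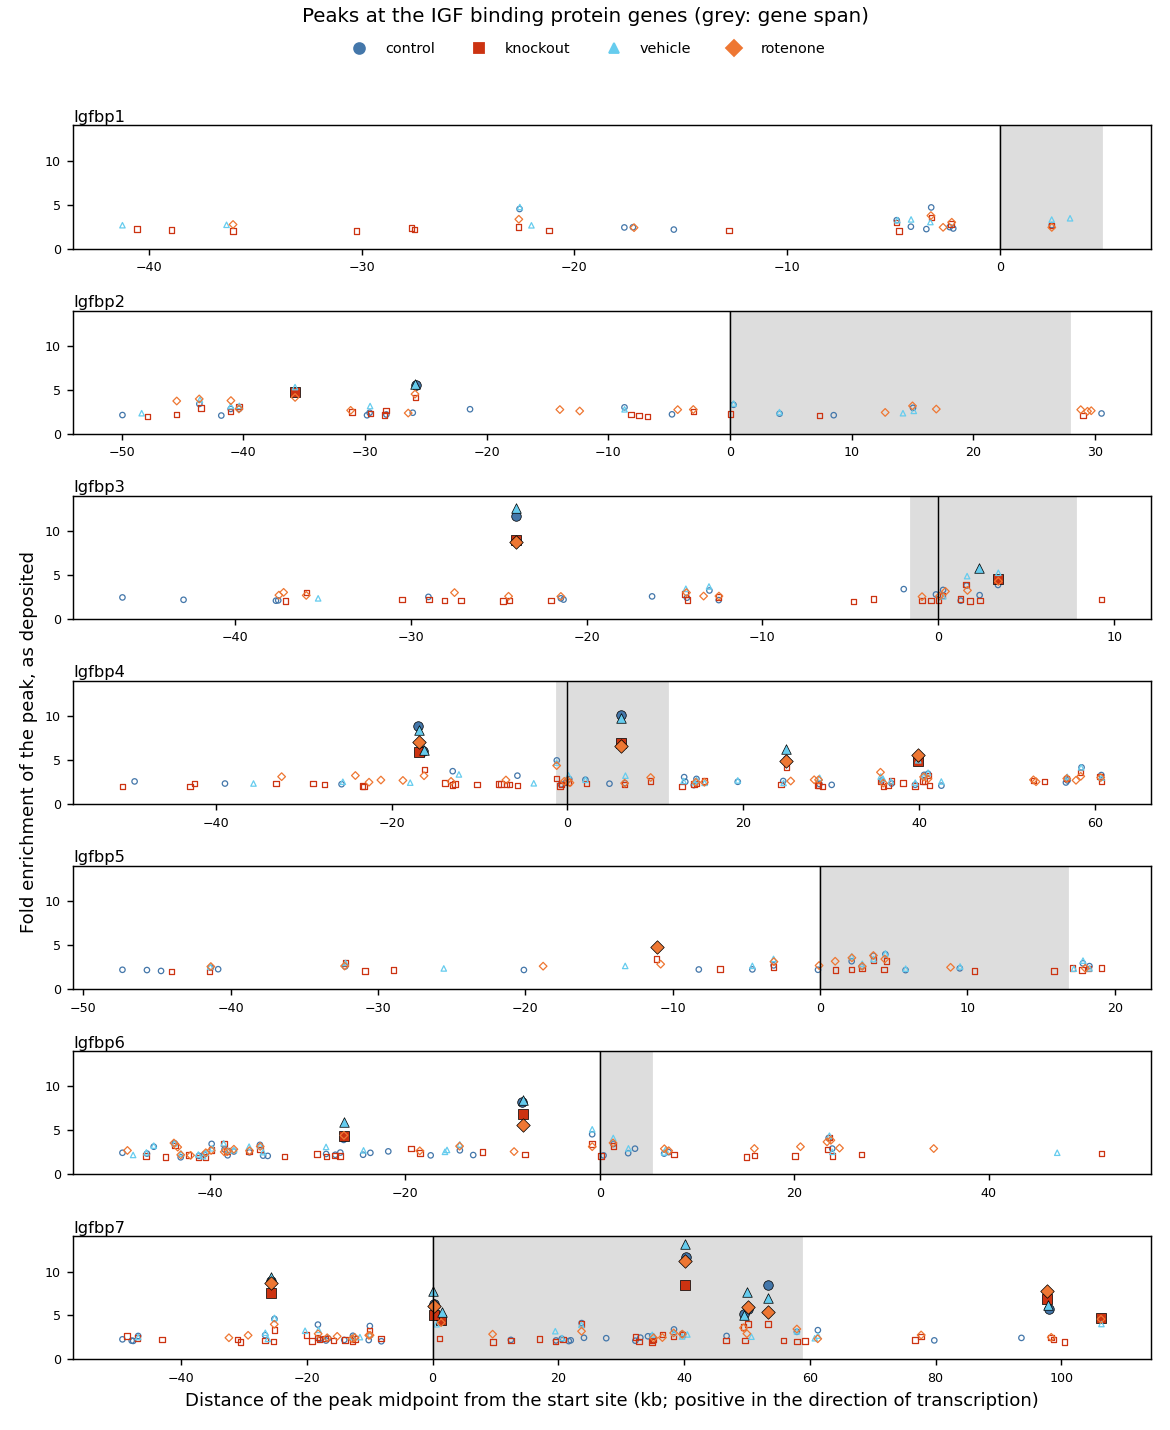
Fold enrichment of every peak (vertical axis) against the distance of its midpoint from the start site in kb (horizontal axis), with 1 panel per gene, filled symbols for strong peaks and open symbols for the rest. The highest peaks are the Igfbp3 region 24.0 kb upstream (8.69 to 12.65) and the Igfbp7 region 40.3 kb inside the gene (8.51 to 13.11).

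Igfbp4 is an inhibitor of IGF action that PAPP-A cleaves. Its leading region in control, the knockout and vehicle lay inside the gene, 6038 bp after the start, at chr11:99047116-99047449. The fold was 10.18 for control, 6.98 for the knockout, 9.76 for vehicle and 6.63 for rotenone. The control and vehicle values were close to each other and the knockout and rotenone values were lower. Upstream, chr11:99024094-99024522 had folds of 8.82, 5.94, 8.39 and 7.0, in the same order of libraries, and was also strong in all 4. In rotenone this upstream region led, at rank 11305 against 12575 for the region inside the gene. Directly beside the upstream region, chr11:99024676-99025079 was strong in control and vehicle only. Its folds were 5.98 for control, 3.94 for the knockout, 6.14 for vehicle and 3.21 for rotenone. Its ranks were 22313, 35193, 24315 and 86580. Both upstream regions are nearer to Top2a, which encodes DNA topoisomerase II alpha, than to Igfbp4. Downstream, chr11:99080945-99081198 was strong in the knockout (fold 4.89, rank 20644) and rotenone (5.55, rank 19241) and fell outside the strong list in control (4.86, rank 33416) and vehicle (4.97, rank 36721). The folds of control and the knockout were nearly equal there, and the nearest gene is Tns4.

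Igfbp6, which prefers IGF2 over IGF1, had 1 region that was strong in all 4 libraries, chr15:102135976-102136518, centred 7939 bp upstream and nearest to Spryd3. The fold was 8.16 for control, 6.87 for the knockout, 8.49 for vehicle and 5.62 for rotenone, and the ranks were 10050, 8745, 9683 and 16969. The knockout peak had the best rank without the highest fold. Farther upstream, chr15:102117828-102117957 was strong in the knockout and vehicle, with folds of 3.91, 4.32, 5.98 and 4.42.

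Igfbp5, a binder of extracellular matrix and bone mineral, had a single strong region, chr1:72885875-72886044, 11094 bp upstream. It was strong in rotenone alone, yet its folds were near each other in 3 libraries: 4.74 in control, 4.68 in vehicle and 4.80 in rotenone, with 3.41 in the knockout. The ranks were 36262, 42427, 27058 and 48032 in that order. All 4 peaks were therefore among the 60000 highest ranked, and the region was not counted as gained. Igfbp2, which carries an integrin-binding RGD motif, had 2 regions, both upstream. The region chr1:72798367-72798784 was strong in control (fold 5.51, rank 28354) and vehicle (5.70, rank 27322) and ranked just outside in the knockout (4.14, rank 30870) and rotenone (4.51, rank 30387). The region chr1:72788702-72788773 was strong in the knockout alone, with folds of 4.67, 4.74, 5.30 and 4.13. Igfbp1, which the liver makes and insulin represses, had no strong peak. Its best region in control, the knockout and rotenone was chr11:7194482-7194618, 3237 bp upstream. The folds there were 4.68 for control, 3.53 for the knockout, 3.02 for vehicle and 3.75 for rotenone. In vehicle that region ranked 128067, and the best peak lay at chr11:7175123-7175325, nearest to Adcy1, with a fold of 4.72 at rank 41788.

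By the best peak of each gene, the control order was Igfbp3 (rank 1942), Igfbp7 (2162), Igfbp4 (6305), Igfbp6 (10050), Igfbp2 (28354), Igfbp5 (36262) and Igfbp1 (39309). In vehicle the order was the same, from 1494 at Igfbp3 and 2023 at Igfbp7 to 41788 at Igfbp1 and 42427 at Igfbp5, except that the last 2 genes changed places. In the knockout Igfbp3 (3985) and Igfbp7 (4646) again led, Igfbp6 (8745) and Igfbp4 (8839) were nearly level, and Igfbp1 (43703) stood before Igfbp5 (48032). In rotenone Igfbp7 (2573) came before Igfbp3 (5017), Igfbp5 (27058) came before Igfbp2 (30387), and Igfbp1 (52030) was last. How far neighbours in these orders would differ between replicate libraries is not known.

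At the start sites few members had a strong peak. A strong peak within 1000 bp of the start was found for 1 of 7 members (Igfbp7) in each library, beside 38.2% to 39.1% of the 17491 genes with a start site in the table. A peak of any strength was found for 6 members in control and 5 in each of the other libraries, beside 68.4% to 72.3% of genes. The Igfbp4 start lay under a weak peak in all libraries, with folds of 2.84 for control, 2.51 for the knockout, 3.26 for vehicle and 2.68 for rotenone, at ranks of 115442, 147286, 100159 and 199697. Those ranks are far outside the strong list. The best peak near the Igfbp6 start lay upstream of it, with folds of 4.55, 3.47, 5.11 and 3.14 and ranks of 38848, 47612, 35621 and 90790. The best ranked peak near the Igfbp3 start was weak and lay inside the gene beside its CpG-rich promoter, with folds of 3.29, 2.63, 2.57 and 3.12. It did not lie over the start itself in any library. Control, the knockout and rotenone had further peaks within 1000 bp, which were not checked for this. Igfbp2 had narrow weak peaks in control (3.29), the knockout (2.23) and vehicle (3.43) and none in rotenone, and none covered either of its 2 start sites. Igfbp5 had a weak peak in control (2.20) and in rotenone (3.17) and none in the knockout or vehicle. Igfbp1 had no peak within 1000 bp of its start in any library.

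**Figure D3:**
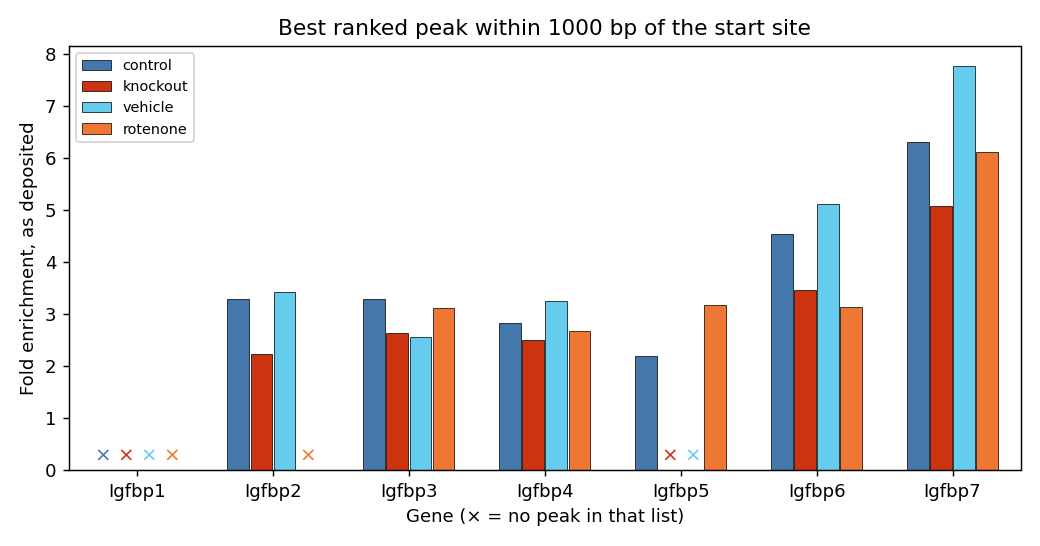
Fold enrichment of the best ranked peak within 1000 bp of the start site (vertical axis, from 0) by gene (horizontal axis) in each library, with a cross where the list has no peak. Igfbp7 stands at 5.08 to 7.77, Igfbp6 at 3.14 to 5.11, and Igfbp1 has no peak in any library.

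The comparison of the knockout with control asked which strong peaks were present with Sod2 deleted and not with Sod2 intact, or the reverse. A strong peak was called gained when it overlapped none of the 60000 highest ranked peaks of the partner library by at least 1 bp, and lost when the partner's strong peak had no such match. At the members 0 of 14 strong knockout peaks were gained, beside 5.33% of all strong knockout peaks (1600 of 30000). Likewise 0 of 13 strong control peaks were lost, beside 6.76% of all (2027 of 30000). At those shares, sets of 14 and 13 peaks would hold fewer than 1 each. In bulk cells, a lower fold from fewer open cells and one from less open chromatin per cell cannot be told apart.

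The comparison of rotenone with vehicle gave 0 of 13 gained peaks at the members, beside 6.81% of all strong rotenone peaks. It gave 2 of 17 lost peaks, beside 8.04% of all strong vehicle peaks. The first was the narrow peak inside Igfbp3, chr11:7211544-7211624, with a vehicle fold of 5.77 at rank 29079 and no peak in rotenone. That peak was close to the limit of the strong list, and control ranked it 138777 and the knockout 445236. The second was the peak chr11:99024790-99025079 in the window of Igfbp4 and nearest to Top2a, with a vehicle fold of 6.14 at rank 24315. Rotenone had a peak there with a fold of 3.21 at rank 86580.

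Vehicle and control, which differ in neither Sod2 nor rotenone, were compared in the same way. At the members 1 of 17 strong vehicle peaks had no match in control, beside 1.03% of all, and 0 of 13 strong control peaks had none in vehicle, beside 0.847% of all. The 1 peak was again the narrow one inside Igfbp3. The Igfbp3 loss in rotenone therefore concerns a peak that stood out in vehicle alone among the 4 libraries. The Igfbp4 window peak differed from it in that control also had it among its strong peaks, at rank 22313. Both comparisons with vehicle share the vehicle library.

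**Figure D4:**
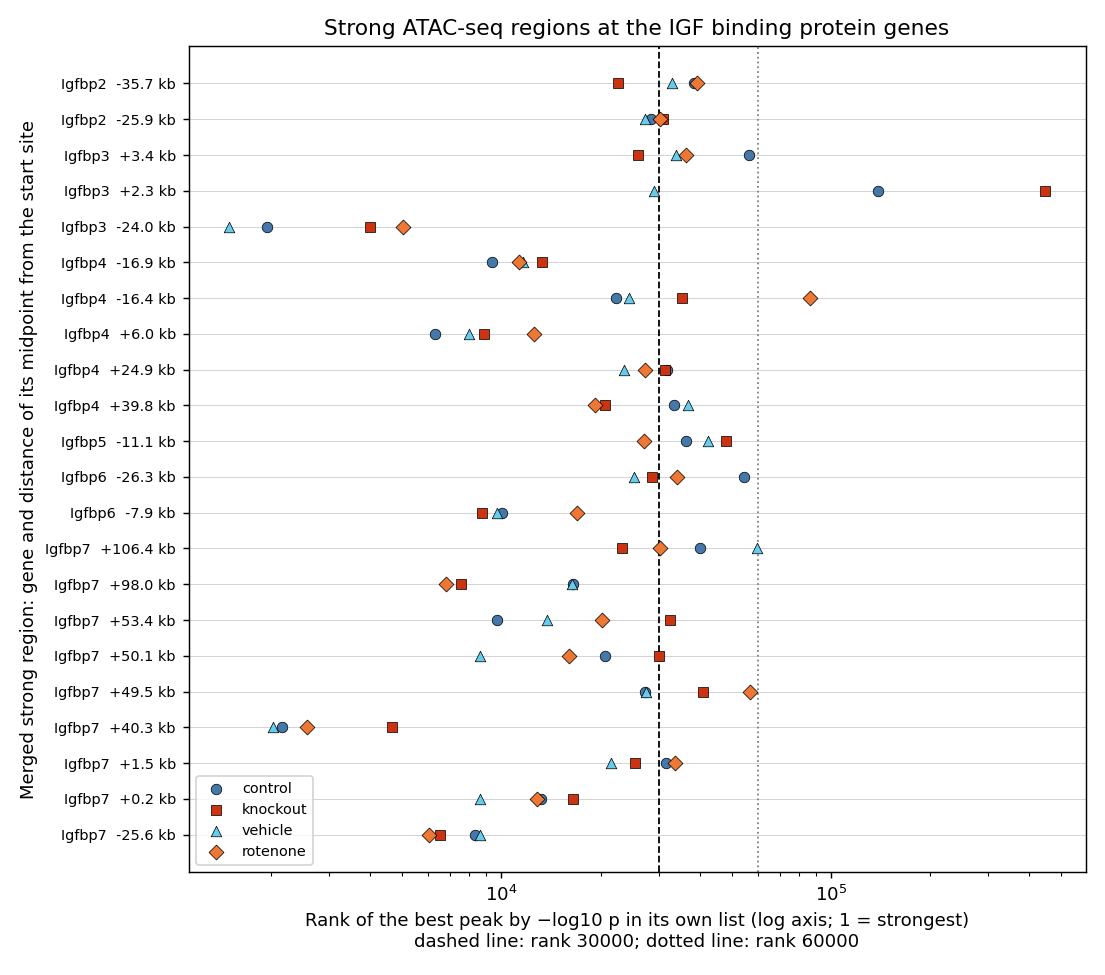
Rank of the best peak of each library (horizontal axis, log scale, 1 is the strongest of its list) in the 22 merged strong regions (vertical axis, labelled by gene and distance from the start site), with lines at ranks 30000 and 60000. The regions 24.0 kb upstream of Igfbp3 and 40.3 kb into Igfbp7 lead in all libraries, and the narrow Igfbp3 region runs from 29079 in vehicle to 445236 in the knockout with no rotenone peak.

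Of the 22 regions, 8 were strong in all 4 libraries (36.4%, Wilson 95% interval 19.7 to 57.0), beside 46.1% of 42457 regions over the genome. A further 2 were strong in 3 libraries, 7 in 2 and 5 in 1. A peak of any strength was present in all 4 libraries at 21 of the 22 (95.5%), beside 97.7% of all regions, and the exception was the narrow Igfbp3 peak. Where all libraries had a peak, the knockout fold was below the control fold at 14 of 21 regions (66.7%), beside 75.6% over the genome. The rotenone fold was below the vehicle fold at 17 of 21 (81.0%), beside 71.3%. The vehicle fold was below the control fold at 6 of 21 (28.6%), beside 38.0%. These directions ran through the whole lists. The median fold of all strong peaks was 6.78 for control, 5.49 for the knockout, 7.13 for vehicle and 5.99 for rotenone. Widths of these peaks had medians of 376, 293, 349 and 277 bp. Intervals here cover counting error only.

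Weak peaks made up most of every list, at the members as elsewhere. Ranked below 60000 were 145 of the 183 control peaks, 182 of 217 in the knockout, 102 of 136 in vehicle and 111 of 144 in rotenone. That is 79.2%, 83.9%, 75.0% and 77.1% of the member peaks, beside 86.1%, 89.7%, 82.4% and 82.7% of all peaks. Of these weak peaks, 39.3% for control, 48.9% for the knockout, 23.5% for vehicle and 36.0% for rotenone overlapped no peak of any other library. The same shares over the genome were 45.8%, 56.7%, 38.2% and 39.3%. Strong peaks at the members recurred in all other libraries in every case but the narrow Igfbp3 peak of vehicle. The knockout list, the longest of the 4, also had the most weak peaks at the members.

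The genes that act with the binding proteins were described in the same way, and the shares of the whole lists given above are their background too. The ligands and receptors (Igf1, Igf2, Igf1r, Igf2r, Insr and Igfals) had 2 of 27 strong knockout peaks gained and 3 of 33 strong control peaks lost. In rotenone they had 2 of 25 gained and 4 of 31 lost, while vehicle against control gave 0 of 31 and 0 of 33. In rotenone most of these peaks lay in Igf1r, the receptor for IGF1, while in the knockout they were spread over Igf1r, Insr, Igf2r and Igf2. Igf1r also held 12 of the 33 strong control peaks of this list and 11 of the 27 for the knockout. For vehicle and rotenone Igf1r held 11 of 31 and 9 of 25. Its region chr7:68127791-68127947 was gained in the knockout, with a fold of 5.20 at rank 18243 against 2.68 at rank 69027 in control. It was gained in rotenone as well, with a fold of 5.17 at rank 21918 against 3.08 at rank 60872 in vehicle, just past the limit of 60000. Also inside Igf1r, chr7:68085354-68085678 was lost in the knockout, where the fold of 5.47 in control stood against 2.07. In rotenone the matching vehicle peak, with a fold of 5.99, was lost against 2.44. A region 40827 bp from Igf2r, the receptor that clears IGF2, was likewise lost in both, from 5.65 in control against 2.60 in the knockout and from 5.92 in vehicle against 3.01 in rotenone. The start site of Igf1r held a strong peak in all libraries, at ranks of 12977 for control, 12705 for the knockout, 10319 for vehicle and 7596 for rotenone.

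The proteases of the binding proteins and their inhibitors (Pappa, Pappa2, Stc1, Stc2, Htra1 and Adam12) had 0 of 26 peaks gained and 0 of 27 lost in the knockout, and 1 of 23 gained and 1 of 30 lost in rotenone. Vehicle against control gave 1 of 30 and 2 of 27, in total more than either, beside 1.03% and 0.847% over the whole lists. The whole-list shares for the knockout and rotenone comparisons were higher, at 5.33% to 8.04%. The peak gained in vehicle, inside Pappa, had a control partner with a fold of 3.47 at rank 68761. The control peaks lost in vehicle, inside Pappa2, had partners with folds of 3.77 and 3.61 at ranks 65510 and 77276. These partners were present but ranked past the limit of 60000. The rotenone gain was inside Pappa, the PAPP-A gene (fold 4.69 against 2.58 in vehicle), and the loss inside Htra1, a serine protease gene (5.80 in vehicle against 2.97). The 9 genes whose proteins carry an IGFBP-like domain (Ccn1 to Ccn6, Esm1, Igfbpl1 and Kazald1) had 3 of 27 gained and 2 of 26 lost in the knockout. In rotenone they had 2 of 28 gained and 4 of 28 lost, and vehicle against control gave 1 of 28 and 0 of 26. Near Ccn5 a knockout peak with a fold of 5.30 stood against 2.94 in control. Inside Kazald1 a vehicle peak with a fold of 7.36 at rank 15449 was lost in rotenone against a fold of 3.53 at rank 60277, again just past the limit. A strong peak at the start or gene end was present for 4 of these 9 genes in control and the knockout and 5 in vehicle and rotenone. Over all genes with a listed start the share was 38.2% to 39.1%. Only 4 of the 9 had a listed start and the others were scored at either gene end, so the measures are not fully alike.

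The labelled cell type was checked by peaks of markers at the start site, or at either gene end where no start was listed. Only 3 of the 6 fibroblast markers had a listed start. The shares of all genes rest on listed starts only, so the measures are not fully alike. Of 6 fibroblast markers, 1 (Col1a2) had a strong peak in each library, beside 38.2% to 39.1% of all genes, and 5 or 6 had a peak of any strength, beside 68.4% to 72.3%. No keratinocyte, myeloid, melanocyte or skeletal muscle marker had a strong one. Peaks of any strength were present at 2 or 3 of 4 keratinocyte markers, 1 to 3 of 3 endothelial, 1 or 2 of 3 myeloid, 0 or 1 of 3 melanocyte and 1 or 2 of 3 skeletal muscle markers. These peaks therefore separated the cell types little. Tek, 1 of 3 endothelial markers, had one in every library, at ranks of 23538 for control, 8014 for the knockout, 18294 for vehicle and 20652 for rotenone. The part of endothelial cells in the Igfbp7 values was not tested. The Sod2 start site ranked 5579 for control, 4797 for the knockout, 5941 for vehicle and 4202 for rotenone. Since the deleted part of Sod2 is not named by the labels, this peak is no check of the genotype.

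The start site peaks were also set beside those of the 10833 genes with one in all 4 libraries, by Euclidean distance of log10 rank. Nearest to Igfbp6 were Spsb2 (distance 0.056) and Rgs4 (0.059). Their rotenone ranks, 92700 and 87702, were the largest numbers of their 4, which follows from choosing genes by these same ranks. Nearest to Igfbp7 were Nr4a2 and the neighbouring LOC105244150 (0.047 each, 1 shared peak). Nearest to Igfbp3 were Phyhipl (0.065) and Cracdl (0.11), and nearest to Igfbp4 were Csrnp3 (0.1) and Aspa (0.12). Igfbp1, Igfbp2 and Igfbp5 lacked a start site peak in at least 1 library and were not compared. These likenesses rest on 4 libraries and are descriptions.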

How the data were processed

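ATAC-seq of 4 dermal fibroblast libraries (control, knockout, vehicle and rotenone, 1 each) was used. Bowtie2, bedtools, MACS2, HOMER and mm10 are named, per the submitters' processing notes; their versions and settings, read filters and transposase shift are not given in the sources here. Per library the authors deposited 1 headerless peak list, whose columns were read as MACS2 writes broad peaks. The deposited score was not used. The deposited fold enrichment is a ratio over local background, and the deposited −log10 p and −log10 q are the authors' values per peak. The lowest −log10 q was 1.0 in each list, so weak peaks are included. Depth is unknown.

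Peaks were ranked by −log10 p (ties by fold), converted to 1-based positions and assigned to members by midpoint. Gene spans, and strand, start sites and promoters, came from RefSeq tables of GRCm38.p6; exons, introns and UTRs were not told apart. For genes of the other lists with no promoter entry, either gene end was used. All 7 members, regions gained or lost in any comparison, start site regions and the 3 best regions per member were eligible to be named, with up to 4 genes per other list that had a gained or lost peak, and the 2 nearest genes by start site rank. The members and lists were chosen with earlier results of these data known. Overlap code was tested on simulated data. Analyses used matplotlib 3.10.9, scipy 1.17.1, pandas 2.3.3 and numpy 2.4.6 under Python 3.11.15. The alternatives tried were 8: other list lengths, ranking by fold, another overlap, partner peaks of any strength, other windows, and only regions nearest to a member.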

Additional observations from a re-analysis of the deposited data

How the results depend on the processing

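Of the 6 counts of gained and lost peaks, ranking by fold changed none by more than 1.5 times. With lists of 15000 and partner lists of 30000, 1 of 8 control peaks was lost in the knockout, beside 5.58% of all strong peaks. In that setting 0 of 9 vehicle peaks were lost in rotenone (6.09% of all), and 0 lacked a match in control (0.96%). With lists of 60000 and partner lists of 120000, 4 of 38 control peaks were lost in the knockout, beside 14% of all. There, 3 of 33 rotenone peaks were gained (15.6% of all), and 3 of 38 control peaks lacked a match in the vehicle partner list (3.45%). With 50% of the peak to be covered, 2 were lost in the knockout (13.2%, against 6.76% in the report). With a partner of any strength, 1 was lost in rotenone (0.953% of all) and 0 vehicle peaks lacked a match in control (0.113%). The shares over all strong peaks do not depend on the window. A window of 10000 bp left 1 lost in rotenone, and so did taking only peaks whose nearest gene is a member. A window of 100000 bp gave 1 of 30 gained and 2 of 25 lost in the knockout, beside 5.33% and 6.76% of all. In rotenone it gave 1 of 28 gained and 4 of 33 lost, beside 6.81% and 8.04%. The cause was not tested. The share of regions strong in all 4 libraries ran from 30.6% to 50% over the settings, beside 39.4% to 46.1% over the genome. No paired analysis was possible because each group has 1 library. Depth is unknown, so a missing peak is not shown to be closed chromatin. Protein sequences were not used here, so the planned protein features were not run.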
